A study of Homo sapiens with 2 samples.

Results

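The genes described here are 9 long noncoding RNAs with known regulatory roles: MALAT1, NEAT1, KCNQ1OT1, H19, PVT1, CCAT1, MIR17HG, TUG1 and DANCR. They were picked by symbol for their known roles, with earlier results of these data known, and each matched 1 entry among the 50867 gene entries of the table. HCT116 is an established human colorectal carcinoma cell line. Its cells received either a control siRNA or one directed at PHF5A, a small subunit of the SF3b complex that binds the branch point of introns during splicing, and total RNA was sequenced. There were 2 libraries, 1 for each siRNA, so no difference below has a replicate check and no p-value is given. The knockdown library carries the label si2, and the labels give neither the siRNA sequence nor the time after transfection. With a single PHF5A siRNA library, effects of the siRNA on other transcripts and effects of PHF5A loss cannot be told apart.

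Long noncoding RNAs are transcribed and usually processed like messenger RNAs but code for no protein. Some stay in the nucleus, and some of these help to organise it. MALAT1 collects in nuclear speckles, which store splicing factors, and NEAT1 is the scaffold on which paraspeckles form. Others act on neighbouring genes, as KCNQ1OT1 does by silencing an imprinted cluster, or are host transcripts from which microRNAs are cut, as MIR17HG is for the miR-17 cluster. Several of the 9 are widely studied in colorectal cancer, among them CCAT1, PVT1, H19 and MIR17HG.

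The RNA sequences that set apart the most altered members are shown first. The 3′ ends of MALAT1 and of the long NEAT1 isoform are not made by polyadenylation: RNase P cuts there, and U-rich stretches fold back on an A-rich tail into a triple helix. Both RNAs end in nearly the same elements, given as 110 bases of GENCODE release 29 transcripts (GRCh38, plus strand, 5′ to 3′, in DNA letters). The MALAT1 window is chr11:65506007-65506116 in the transcript of 8708 bases, where 353 annotated bases follow it, and the NEAT1 window is chr11:65445431-65445540, the last bases of the transcript of 22743 bases. Capitals mark the shared motifs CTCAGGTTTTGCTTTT and AAAAAGCAAAA, searched on the sense strand only.
MALAT1: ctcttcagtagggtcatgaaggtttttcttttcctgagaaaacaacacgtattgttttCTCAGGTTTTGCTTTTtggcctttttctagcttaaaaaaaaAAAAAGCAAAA
NEAT1: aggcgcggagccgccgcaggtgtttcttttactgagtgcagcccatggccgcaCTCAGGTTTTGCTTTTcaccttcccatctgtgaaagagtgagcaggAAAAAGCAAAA
Of 14295 genes of the table with a long noncoding type in that annotation, 2 (0.014%) held the longer motif anywhere in a transcript, MALAT1 and NEAT1 themselves, and 68 (0.476%) held the shorter one. The motifs lie 25 bases apart in MALAT1 and 30 in NEAT1.

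MIR17HG is shown through the microRNAs cut from it, since the seed decides which messages a microRNA pairs with. The hairpins of all 6 lie on the plus strand of chromosome 13, from MIR17 (start 91350605) to MIR92A1 (end 91351391), and fall in an exon in 2 of the 3 annotated MIR17HG transcripts. The mature arms usually most abundant are given from RefSeq (GRCh38.p14), 5′ to 3′, with the seed, bases 2 to 8, in capitals.
hsa-miR-17-5p: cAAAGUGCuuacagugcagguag
hsa-miR-20a-5p: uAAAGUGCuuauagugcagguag
hsa-miR-18a-5p: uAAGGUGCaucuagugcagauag
hsa-miR-19a-3p: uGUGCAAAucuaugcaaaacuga
hsa-miR-19b-3p: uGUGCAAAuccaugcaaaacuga
hsa-miR-92a-3p: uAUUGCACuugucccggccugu
They fall into 4 seed groups. miR-17-5p shares AAAGUGC with miR-20a-5p, and miR-19a-3p shares GUGCAAA with miR-19b-3p. The mature microRNAs have no values here, since the libraries were made from total RNA and counted per gene.

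Where a pair of values is given below, the control value comes first and the knockdown value second. The libraries held 26552789 and 25897412 counts, and PHF5A had 367 and 91 of them. Of the 12 colorectal epithelial markers, the keratins KRT8, KRT18 and KRT19 were high in both libraries, EPCAM had 412 and 501 counts, CDH1 913 and 843, and the intestinal factor CDX2 822 and 367. KRT20, CDX1 and TFF3 had 0 counts in both, and CEACAM5, VIL1 and LGALS4 at most 6. The libraries differed in genes that a colorectal line should lack: the 15 heart muscle markers summed to 96719 counts in the control library (0.364% of all counts) and to 315 in the knockdown library (0.00122%). Of these 15, 14 were at least 2-fold lower in the knockdown library and 7 were at 0 there. Fibroblast markers summed to 2904 and 878 counts, blood cell markers to 560 and 427. Of the blood cell marker counts, CD68 alone held 518 and 361, so their sum mostly follows this gene. Small noncoding RNAs of the 7SL, 7SK, RPPH1 and RMRP entries took 17.4% and 26.1% of the counts. These differences separate the same 2 libraries as every result on the 9 RNAs, several of which are expressed in most tissues, and their part in those results was not tested. Whether the control library holds RNA of another sample was not tested either, so every control value below is that of the library as deposited. In bulk RNA, fewer cells of a type and less RNA per cell cannot be told apart.

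As a group the members took a smaller share of the knockdown library. Their summed counts went from 15492 to 5397, a share of all counts of 0.0583% (95% exact binomial interval 0.0574 to 0.0593%) against 0.0208% (0.0203 to 0.0214%). All intervals here cover counting error alone. Over all long noncoding genes the summed counts did not go down, at 156344 and 168508, and the members, other than CCAT1, which has no type in the annotation used, made up 9.88% and 3.19% of them. Small noncoding RNAs that carry a long noncoding type were not removed from these sums. A few entries may therefore set their direction, which was not tested. MALAT1 alone supplied 55.6% and 30.8% of the members' counts.

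**Figure D1:**
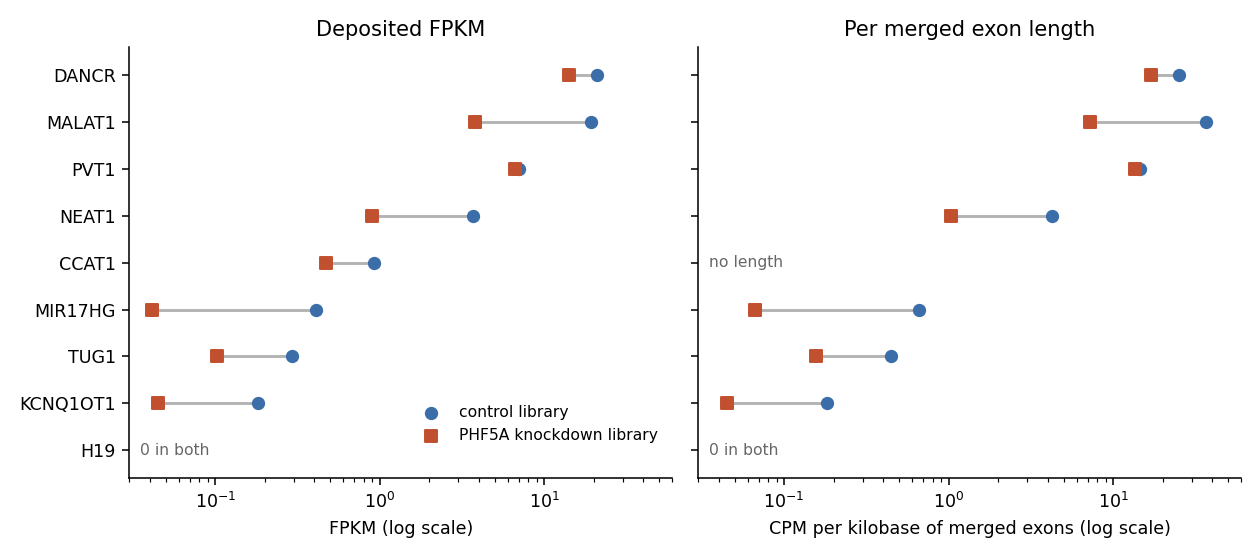
Levels of the 9 RNAs in the control library (circles) and the PHF5A knockdown library (squares), 1 library each. The left panel gives deposited FPKM and the right panel CPM per kilobase of merged exons, both on log axes. MALAT1, NEAT1, KCNQ1OT1 and MIR17HG show wide gaps between the libraries, TUG1 a narrower one and PVT1 almost none. H19 is at 0, and CCAT1 has no annotated length for the right panel.

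Not all of these RNAs were abundant in HCT116, whatever their reputation. On FPKM, which divides fragments by gene length and by the total of the library, 4 of 9 reached 1 FPKM in the higher library: DANCR, MALAT1, PVT1 and NEAT1. The remaining 5 were below that level in both libraries, and H19 had no count at all. In the control library the deposited FPKM ran in the order DANCR, MALAT1, PVT1, NEAT1, CCAT1, MIR17HG, TUG1, KCNQ1OT1 and H19. This order depends on gene length: the deposited FPKM of 86.8% of 11803 genes was computed, to within 1%, with the sum of all distinct annotated exons, so that overlapping exon models were counted repeatedly. For MALAT1 the length in use was 1.91 times its merged exon length, for PVT1 2.06 times and for KCNQ1OT1 1.0 times. CPM, the count scaled to the total of the library, taken per kilobase of merged exons put MALAT1 first in the control library, at 36.7, ahead of DANCR at 25.1, PVT1 at 14.5 and NEAT1 at 4.25. In the knockdown library the same measure gave DANCR 16.9, PVT1 13.7, MALAT1 7.27 and NEAT1 1.04. No spread over replicates stands behind either order. On both scales DANCR and PVT1 were above MALAT1 in the knockdown library. In the control library MALAT1 was above PVT1 on both scales, and above DANCR only per kilobase of merged exons.

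Of the 4 members that reached 1 FPKM, 2 were at least 2-fold lower in the knockdown library (MALAT1 and NEAT1) and 0 were higher, where the log2 ratio was taken after adding 1 to each FPKM. NEAT1 reached 1 FPKM in the control library alone. Among all 8957 genes at that level, 6.2% were lower and 2.53% higher by the same rule, and among 631 long noncoding genes 8.08% were lower. Since adding 1 hides changes of low genes, a second rule was chosen after the values were seen: at least 50 counts in the higher library and a CPM ratio at or beyond 2-fold. By it 8 of the 9 members could be read, 5 were lower (MIR17HG, MALAT1, NEAT1, KCNQ1OT1 and TUG1) and 0 were higher. Of the 8, 3 (MIR17HG, TUG1 and CCAT1) passed the minimum only through the control library, where they are high, so the counts and the median describe the members and support nothing. Of the 5 with at least 50 counts in both libraries, 3 were lower (MALAT1, NEAT1 and KCNQ1OT1). The share called lower was 16.6% of 12381 genes and 17.9% of 536 long noncoding genes, and the share called higher was 5.07% and 15.3%. The median CPM ratio, knockdown to control, was 0.298 over the 8 members, 0.848 over all genes and 0.960 over the long noncoding genes. All 8 ratios were below 1, and 7 of the 8 had an interval wholly below 1. The median ratio of all genes was below 1 too, and PVT1 at 0.942 lay above it. The share of all genes with a ratio or interval below 1 was not computed.

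**Figure D2:**
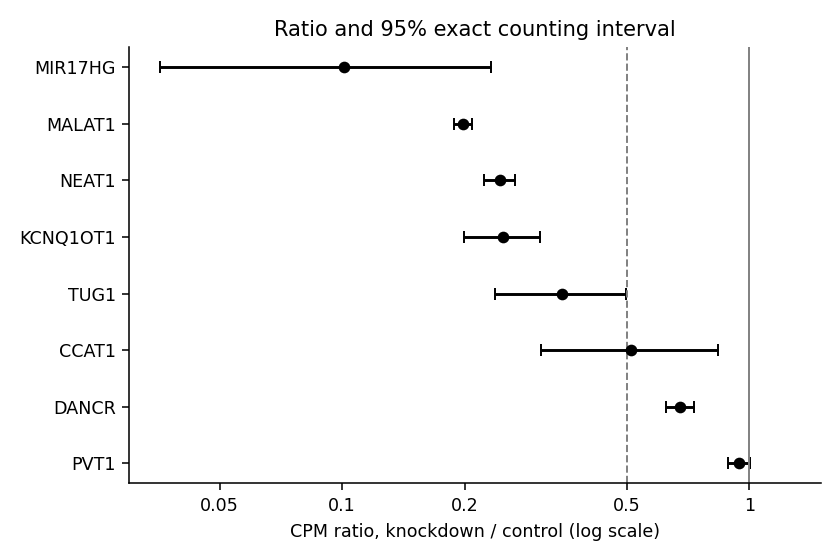
CPM ratio, knockdown to control, of the 8 members with at least 50 counts in the higher library (points, log axis), with 95% exact intervals for counting error. The solid line marks a ratio of 1 and the dashed line the 2-fold threshold. From MIR17HG at 0.101 to PVT1 at 0.942, every point lies left of 1, and the PVT1 interval reaches 1.002.

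The RNAs that localise to nuclear bodies were lower. MALAT1 (ENSG00000251562, chromosome 11, 65497762 to 65506516, GRCh38), which is retained in nuclear speckles, had 8610 and 1662 counts, or 19.2 and 3.80 FPKM. This is a log2 ratio of -2.07, and on CPM a level 5.05-fold lower (interval 4.79 to 5.33). MALAT1 ranked 2 and 8 by count among the 14295 long noncoding genes. NEAT1 (ENSG00000245532, chromosome 11, 65422774 to 65445540), the paraspeckle scaffold, had 2568 and 610 counts, 3.71 and 0.903 FPKM, and a log2 ratio of -1.31. Its CPM was 4.11-fold lower (3.76 to 4.49), and its ranks were 7 and 33. The deposited table has a single NEAT1 entry, so the short polyadenylated isoform and the long isoform that carries the sequence shown above could not be separated.

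Genes of the proteins that share these bodies were mostly within 2-fold, as were most genes. Of 17 paraspeckle protein genes at 1 FPKM or more, 0 were at least 2-fold higher and 0 lower, with a median log2 ratio of -0.19 beside -0.15 for all expressed genes. Among all genes at that level 6.2% were lower and 2.53% higher. By the 50-count rule, without 1 added, 1 of 20 was lower and 0 higher, beside 16.6% and 5.07% of all genes. NONO and SFPQ, the pair that stabilises NEAT1, had log2 ratios of -0.37 (16.9 and 12.8 FPKM) and -0.28 (7.62 and 6.12 FPKM). The lower one was RBMX, a relative of the hnRNP proteins, with a log2 ratio of -0.80 (2.95 and 1.26 FPKM) and a CPM ratio of 0.429. Of 14 nuclear speckle protein genes 0 were called in either direction and the median was 0.04, and by the 50-count rule 2 of 16 were lower. PNN, a speckle and junction protein, went from 0.848 to 1.67 FPKM (log2 ratio 0.53). Others of the list with large differences went the other way. RNPS1 had a log2 ratio of -0.405 (12.6 and 9.25 FPKM) and SRSF2 -0.40 (10.4 and 7.62 FPKM). The list of enzymes that cut the tRNA-like 3′ ends or methylate RNA gave 0 called of 10 and a median of -0.07, and 0 of 16 by the 50-count rule. Within it RPP21, a protein subunit of RNase P, had a log2 ratio of 0.53 (14.5 and 21.3 FPKM), ELAC2, the tRNA 3′ endonuclease, -0.25 (12.9 and 10.7 FPKM), and METTL3, the m6A methyltransferase, -0.27 (3.21 and 2.50 FPKM).

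MALAT1 and NEAT1 are neighbours on chromosome 11, and the genes around them were read by the 50-count rule. Of 20 entries within 250 kb of MALAT1, NEAT1 included, 3 were lower and 0 higher, with a median CPM ratio of 0.857. Within 250 kb of NEAT1, MALAT1 included, 4 of 20 were lower and 0 higher, with the same median. Over all genes 16.6% were lower by this rule. CAPN1, which lies in the NEAT1 window alone, had 25977 and 11069 counts and a ratio of 0.437 (0.427 to 0.447). The nearest protein-coding gene upstream of NEAT1, FRMD8, which encodes a membrane-associated FERM domain protein, was among the lower ones: it had 4886 and 1056 counts, a ratio of 0.222 (0.207 to 0.237) and thus a level 4.51-fold lower. FAM89B was the third lower entry of the MALAT1 window, with a ratio of 0.181 (0.157 to 0.208). It overlaps SSSCA1, whose ratio was 0.970, and reads may have been split between them. Between NEAT1 and MALAT1 lies the pseudogene CMB9-22P13.1, whose ratio was 1.24 (0.847 to 1.83). Downstream of MALAT1, LTBP3, a binding protein of latent TGF-beta, had a ratio of 0.868 (0.841 to 0.895). The low values did not extend evenly over the locus. The entry AP000769.7, on the strand opposite to MALAT1 and inside it, had 5 and 19 counts, which is too few to alter the MALAT1 value: with both entries summed its log2 ratio was -2.06.

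**Figure D3:**
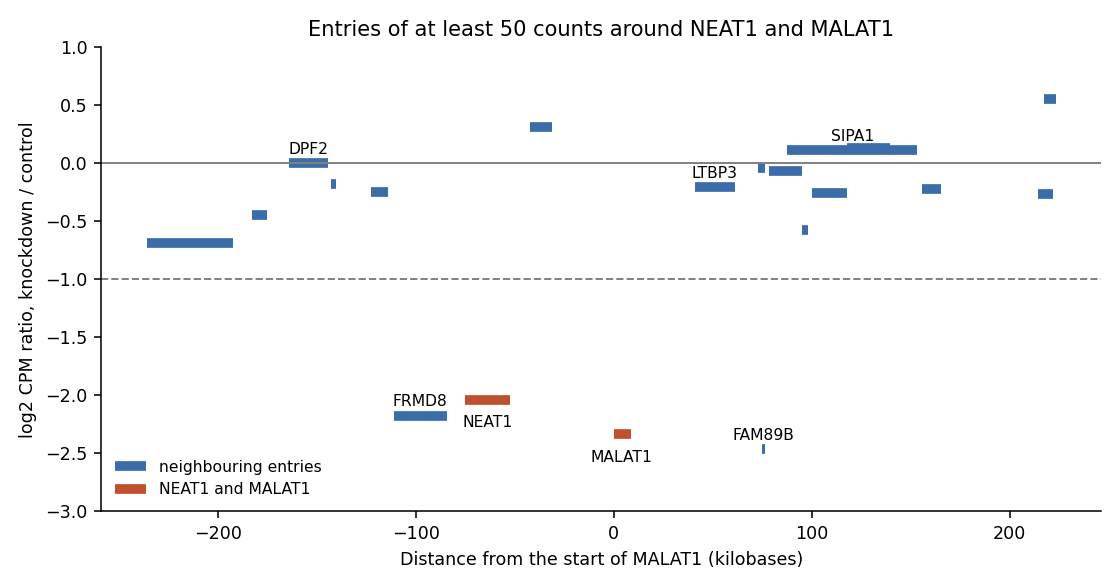
CPM ratio on a log2 axis, knockdown to control, of the entries reported here with at least 50 counts within 250 kb of MALAT1, drawn as bars over the extent of each gene by distance from the MALAT1 start. NEAT1, FRMD8, MALAT1 and FAM89B lie at or below -2, and the other entries drawn lie between -1 and 1.

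The imprinted region at the end of the short arm of chromosome 11 holds 2 members. KCNQ1OT1 (ENSG00000269821, 2608328 to 2699994, minus strand), an antisense RNA made from the paternal allele, had 443 and 107 counts. That is 0.182 and 0.0451 FPKM over a single annotated exon of 91667 bases, and a CPM 4.04-fold lower (3.26 to 5.04). It lies inside KCNQ1, a potassium channel gene on the opposite strand, which had 547 and 231 counts and a CPM ratio of 0.433 (0.370 to 0.506). No source used here says whether reads were counted by strand, so reads of the 2 genes cannot be told apart with certainty. H19 (ENSG00000130600, 1995163 to 2001470), a maternally expressed RNA of fetal tissues, had 0 counts in both libraries, which allows up to 3 counts, or 0.113 and 0.116 CPM. No fold can be given for it.

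The protein-coding genes of the imprinted cluster had ratios on both sides of 1. Of 12 expressed entries of the 11p15 list, 0 were at least 2-fold higher and 1 was lower, with a median log2 ratio of 0.22. Among all expressed genes 6.2% were lower and 2.53% higher on FPKM. By the 50-count rule 2 of 12 were lower, IGF2 and KCNQ1, and 1 was higher, SLC22A18AS, with 41 and 82 counts and a ratio of 2.05 (1.39 to 3.06). Over all genes 16.6% were lower and 5.07% higher by that rule. The gene lower by both rules was IGF2, the fetal growth factor gene that shares enhancers with H19, at 3.48 and 1.08 FPKM (log2 ratio -1.11, 913 and 276 counts). KCNQ1OT1 is known to silence genes of this cluster in cis, but whether it bears on the values here was not tested. PHLDA2, a gene that restrains growth, had 190.7 and 375.7 FPKM (log2 ratio 0.97), and CDKN1C, a cyclin-dependent kinase inhibitor gene, had 1.84 and 2.91 FPKM (0.46), both short of 2-fold. KCNQ1 itself had 3.67 and 1.59 FPKM (-0.85), and NAP1L4, a histone chaperone gene at the edge of the cluster, 1.29 and 0.660 FPKM (-0.46). SLC22A18, another gene of the cluster, was nearly level, with 1327 and 1390 counts and a CPM ratio of 1.07 (0.995 to 1.16). The table does not separate alleles.

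PVT1 and CCAT1, which flank MYC on chromosome 8, differed from each other. PVT1 (ENSG00000249859, 127794533 to 128101253), whose locus is often amplified together with MYC, was nearly level: 2116 and 1944 counts, 7.06 and 6.65 FPKM, and a CPM ratio of 0.942 (0.885 to 1.002). Its log2 ratio was -0.08, and of 8 alternative scalings and settings 5 left it below 0 and 3 put it above, so it has no stable direction. CCAT1 (ENSG00000247844), named for its overexpression in colon cancer, had 52 and 26 counts, or 0.919 and 0.471 FPKM, and a CPM ratio of 0.513 (0.307 to 0.836), just short of the 2-fold threshold. MYC, the transcription factor gene next to PVT1, had the opposite sign, with 4053 and 6957 counts and a CPM ratio of 1.76 (1.69 to 1.83). CASC8, beside CCAT1, had a ratio of 1.22 (0.862 to 1.72). PVT1 thus had the ratio nearest to 1 among the 8 members, beside a MYC ratio above 1.

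MIR17HG (ENSG00000215417, chromosome 13, 91347820 to 91354579) had the lowest ratio of the 8 on the thinnest counts: 61 and 6, or 0.411 and 0.0414 FPKM. This is 9.92-fold lower, with an interval of 4.30 to 28.1. The gene was below 1 FPKM in both libraries, and the host RNA is cut during processing, so its count does not give the amount of the microRNAs listed above. Of 7 expressed genes of microRNA processing, 0 were called in either direction and the median log2 ratio was -0.40. Among all expressed genes 6.2% were called lower and 2.53% higher on FPKM. Over all genes the 50-count rule called 16.6% lower, with a median CPM ratio of 0.848. Under this rule, by which MIR17HG was read, 3 of 14 processing genes were lower and 0 higher, with a median CPM ratio of 0.698. The expressed ones included XPO5, which exports the precursor hairpins, at 8.02 and 4.52 FPKM (-0.71), DGCR8, which recognises primary transcripts, at 1.80 and 1.07 FPKM (-0.44), and DICER1, which cuts the precursors, at 1.04 and 0.713 FPKM (-0.25). Of the known targets of the cluster 9 were expressed, 0 were called in either direction, and the median was -0.37. By the 50-count rule 3 of 19 were lower and 0 higher, beside 16.6% and 5.07% of all genes. The lower ones included HIF1A (CPM 2.50-fold lower, 2.20 to 2.86) and THBS1, an inhibitor of angiogenesis (2.06-fold, 1.84 to 2.30). On the FPKM scale the largest differences among them were negative, with HIF1A, the hypoxia factor, at 3.17 and 1.27 FPKM (-0.88), E2F2, a cell cycle factor, at 7.24 and 3.62 FPKM (-0.83), and TGFBR2, a TGF-beta receptor, at 5.85 and 3.16 FPKM (-0.72).

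TUG1 (ENSG00000253352, chromosome 22, 30970677 to 30979395), a widely expressed RNA linked to Polycomb repression, had 121 and 41 counts, or 0.294 and 0.102 FPKM, and was 2.88-fold lower on CPM (2.005 to 4.21). It starts next to MORC2, an epigenetic silencer gene read in the other direction, which had 2.31 and 1.26 FPKM and a CPM ratio of 0.547 (0.468 to 0.639). DANCR (ENSG00000226950, chromosome 4, 52712404 to 52720351), which holds progenitor cells undifferentiated and hosts a small nucleolar RNA, had 1521 and 1001 counts, or 20.9 and 14.1 FPKM. Its log2 ratio was -0.54 and its CPM ratio 0.675 (0.622 to 0.731), a smaller difference than that of the 5 RNAs past the threshold and one whose interval does not meet theirs. DANCR had the highest level per length of the members in the knockdown library.

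The 5 members lower by the 50-count rule all had a long exon and a low GC content. MIR17HG and TUG1 passed the minimum only through the control library, where they are high, so the shared structure describes these members and supports nothing. The longest exons of the 5 ran from 2705 bases in MIR17HG to 91667 in KCNQ1OT1, and their GC content from 37.7% to 44.1%. DANCR and PVT1 had short exons (longest 684 and 947 bases) and more GC (53.7% and 52.2%). CCAT1 had no annotated exon model in the release used. Over the other long noncoding genes read by the same rule, with the members left out and classes set after the values were seen, the share called lower was 18 of 48 (37.5%) for genes with a longest exon of at least 2 kb and GC under 45%, and their median CPM ratio was 0.710. It was 14 of 137 (10.2%) for genes with a longest exon under 1 kb and GC of at least 50%, with a median of 1.17. The class depended on how GC was divided: over any exon length it was 14 of 28 (50%) with GC under 40% and 7 of 47 (14.9%) with GC from 40% to under 45%, the range that holds all of the 5 members but MIR17HG. With long exons and GC of at least 45% it was 25 of 154 (16.2%), and with a longest exon under 2 kb and GC under 45% it was 3 of 27 (11.1%). Protein-coding genes showed a smaller spread over the matching classes, 20.6% of 2611 long, AT-rich genes and 13.6% of 1646 short, GC-rich ones. These shares describe 2 libraries only.

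**Figure D4:**
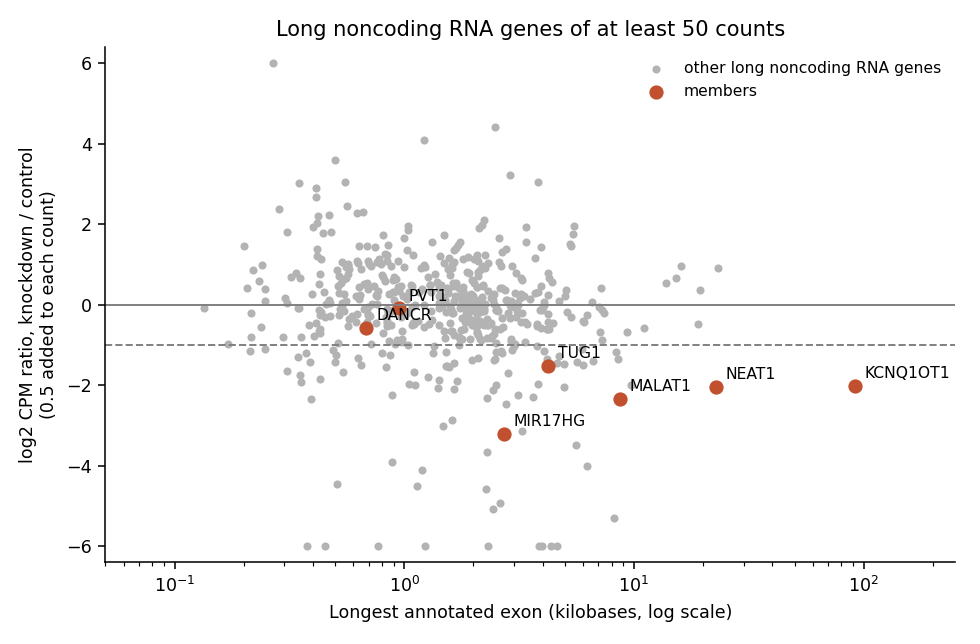
Log2 CPM ratio, knockdown to control, with 0.5 added to each count, against the longest annotated exon (log axis) for 536 long noncoding RNA genes of at least 50 counts. Members are the large labelled points, and 10 genes beyond the edges are drawn at 6 or -6. MIR17HG, TUG1, MALAT1, NEAT1 and KCNQ1OT1 lie below -1 with long exons, DANCR and PVT1 lie near 0 with short ones.

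Other well-known long noncoding RNAs had medians near those of all genes. Of 20 expressed entries of a list of them, 2 were at least 2-fold lower and 1 higher. Their median log2 ratio was -0.17, beside -0.15 for all expressed genes. On the 50-count rule 7 of 28 were lower and 1 higher, with a median CPM ratio of 0.861 beside 0.848 for all genes. By the latter rule 17.9% of all long noncoding genes were lower and 15.3% higher. The only higher entry by either rule was 1 of 2 overlapping RMRP entries, and the other RMRP entry was among the lower ones. TERC, the telomerase RNA, was lower, at 37.0 and 11.6 FPKM (log2 ratio -1.59). The 2 overlapping entries of RMRP, the RNA of RNase MRP, went opposite ways and are uncertain one by one, so only their sum is given: 236430 and 78580 counts. SNHG8, a snoRNA host, had 13.2 and 22.4 FPKM (0.72). OIP5-AS1, an RNA known to bind HuR, had 430 and 164 counts and a CPM ratio of 0.391. UCA1, an RNA raised in bladder cancer, had a ratio of 0.656, while GAS5, a growth-arrest transcript, had 0.873 and LINC00657, also known as NORAD, 0.813.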

How the data were processed

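RNA of 1 control and 1 PHF5A knockdown culture of HCT116 was isolated with Trizol, and a TruSeq kit for stranded total RNA was used, per the labels' protocols. The submitters' processing notes name HISAT2 2.0.4, Cuffdiff and hg38 (GRCh38). Annotation release, strand setting and handling of multiply matching reads were not found in the sources. The authors deposited, for each library, whole-number counts and FPKM per gene, per the file headers. Of 50869 lines, 2 holding 1 broken gene entry were left out.

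Types, exons and GC came from GENCODE release 29, which matched 50110 entries by identifier and not 757, CCAT1 among them. The main measure was the log2 ratio of FPKM after adding 1. A gene was called at 2-fold by size alone if the higher library reached 1 FPKM. CPM ratios were computed from the deposited counts with 95% exact conditional binomial (Clopper-Pearson) intervals, which cover counting error only. With 1 library per group no test was run.

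The members and the 12 gene lists were chosen with earlier results of these data known. Named genes were the members, PHF5A, overlapping entries, up to 4 expressed genes per list with the largest absolute log2 ratio, and MYC, IGF2, CDKN1C, KCNQ1, NONO, SFPQ and DICER1 whatever their value. Results on 2 genes of this rule are not reported here. Cell type markers, CAPN1, FAM89B, SSSCA1, LTBP3, CMB9-22P13.1, CASC8, SLC22A18AS, SLC22A18, OIP5-AS1, UCA1, GAS5 and LINC00657 were named after their values were seen. Alternatives were pseudocounts, filters, scalings, a 1.5-fold threshold and sums with overlapping entries. The 50-count rule and the merged exon length were added after the values were seen. The calling code was run on simulated counts with known changes and counting error alone. That simulation held no variation between cultures and cannot speak to it. Software was matplotlib 3.10.9, scipy 1.17.1, pandas 2.3.3, numpy 2.4.6 and Python 3.11.15.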

Additional observations from a re-analysis of the deposited data

How the results depend on the processing

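MALAT1 stayed at least 2-fold lower in 9 of 9 alternatives (log2 ratio -2.47 to -1.88) and NEAT1 in 8 of 8 (-2.04 to -1.16). The number of members lower was 2 under each other FPKM pseudocount, filter, scaling and threshold run, except a minimum of 5 FPKM, which NEAT1 does not reach and which left 1. Under the CPM ratio among genes of at least 50 counts it was 5. No alternative put a member 2-fold higher. KCNQ1OT1 and TUG1 were past 2-fold in 1 of 9 alternatives each and MIR17HG in 2 of 8, on CPM or with a pseudocount of 0.1 FPKM. The members' share of counts, computed without the small noncoding RNAs, was 0.0707% for the control and 0.0282% for the knockdown.

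The count of expressed genes lower and higher, 555 and 227, was 1129 and 469 with a pseudocount of 0.1 FPKM, 309 and 131 at a minimum of 5 FPKM, 358 and 345 after centring on the median, 1405 and 107 after rescaling to TPM, 1239 and 505 on CPM with a prior of 0.5, 1631 and 757 at 1.5-fold, and 2055 and 628 under the CPM ratio. With upper-quartile scaling 411 genes were higher and 379 lower, and without the small noncoding RNAs 392 were higher and 510 lower. The split between higher and lower genes thus depends on the scaling, and the median log2 ratio of the expressed genes was -0.15 as deposited, -0.47 after rescaling to TPM, 0.06 with upper-quartile scaling and -0.02 without the small noncoding RNAs. No paired analysis was possible because each siRNA had 1 library. Depth limits MIR17HG, CCAT1 and TUG1, whose intervals are wide, and H19, which was not detectable. Variation between cultures is unknown.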
